A study of Homo sapiens with 6 samples.

Results

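The endoplasmic reticulum (ER) folds, modifies and exports secreted and membrane proteins, and 40 genes of this machinery were followed here. They encode ER chaperones, disulfide enzymes, stress sensors, factors of ER-associated degradation and subunits of the translocon. They were matched to the array by gene symbol, by a rule that uses no measured value, and the list itself was drawn up with earlier results of these arrays known. All 40 were on the array, among 20313 gene symbols, and were read by 41 probe sets, of which P4HB had 2. A probe set is the group of short array probes that reports 1 transcript or gene.

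The cells were MDA-468.shp53, a human breast cancer line whose name reads as MDA-MB-468, a line with mutant p53, carrying a short hairpin RNA against p53. All arrays share this line, growth in 3D culture and a time of 8 days. Of the 6 arrays, 3 came from cells kept without doxycycline (-DOX) and 3 from cells kept with it (+DOX), the drug that switches on such hairpins, in 3 independent experiments numbered 1 to 3. Cells that lack the hairpin were not analysed here with the drug, so hairpin and drug cannot be told apart, and the labels do not say whether the line is a clone.

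Proteins enter the ER through the SEC61 channel and are bound by chaperones such as BiP (HSPA5), by the lectin chaperones calnexin and calreticulin, and by disulfide isomerases. Chains that fail to fold are taken back to the cytosol by ER-associated degradation, in which SEL1L and the ubiquitin ligase SYVN1 form the core of a membrane complex. The sensors IRE1 (ERN1), PERK (EIF2AK3) and ATF6 respond to unfolded protein, and their output, the unfolded protein response, raises the transcription of many chaperone and degradation genes.

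Values are log2 signals, so a difference of 1 is a doubling, and changes are +DOX minus -DOX. Medians of the 6 arrays lay between 7.45 and 7.56. All 6 epithelial markers, among them EPCAM, KRT8 and EGFR, read above the array median on all 6 arrays (10.82 to 13.35). Of 5 markers of other cells, PTPRC, PECAM1 and DCN read below it on all 6, COL1A1 read above it on all 6 (8.71 to 8.96) and COL3A1 on 3. Changes were tested in limma with the experiment as a term, and a gene was called at an adjusted p under 0.05 over 28026 probe sets.

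Of the 40 genes, 12 rose with doxycycline, none fell and 28 did not pass. The 12 are 30% of the members, where 6.14% of all probe sets rose and 6.63% fell. Of the members, 39 had a mean signal above 7.50, the median over all probe sets. The shares over all probe sets thus include many dimmer ones, and shares among bright probe sets alone were not counted. The rises were in CLGN, SEL1L, ATF6, ERO1LB, HYOU1, DNAJB9, ERN1, HSPA5, HERPUD1, EDEM2, DERL2 and XBP1. At an unadjusted limma p under 0.05 there were 17 higher members, against 12.1% of all probe sets, and 2 lower members, against 12.4%. The methods' t-test, which the design text describes as paired per probe, at its 1% level, gave 9 higher members (1.67% of all probe sets) and 1 lower member (2.49%), and 0 members once adjusted (19 had an unadjusted p under 0.05, as had 15.9% of all probe sets). Of these 9, 6 were among the 12 limma rises, CLGN, SEL1L, ERN1, DNAJB9, DERL2 and XBP1. ATF6, HYOU1, HSPA5, HERPUD1, EDEM2 and ERO1LB did not reach the 1% level, and HSP90B1, SYVN1 and TXNDC5 reached it without a limma call. Below, passing refers to limma unless the methods' t-test is named.

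The median change of the members was 0.17, against -0.012 over all probe sets. A change above 0 was seen in 33 of 40 members and in 12985 of all 28026 probe sets. In 19 members all +DOX arrays lay above all -DOX arrays (11.4% of all probe sets), and in 3 members, CALR, P4HB and SSR2, all lay below (13.5%). Apart from CLGN, changes ran from -0.23 in SSR2 to 0.88 in SEL1L, so each member other than CLGN moved by less than a doubling. In RNA from whole cultures, more signal per cell and more cells with the signal cannot be told apart.

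**Figure D1:**
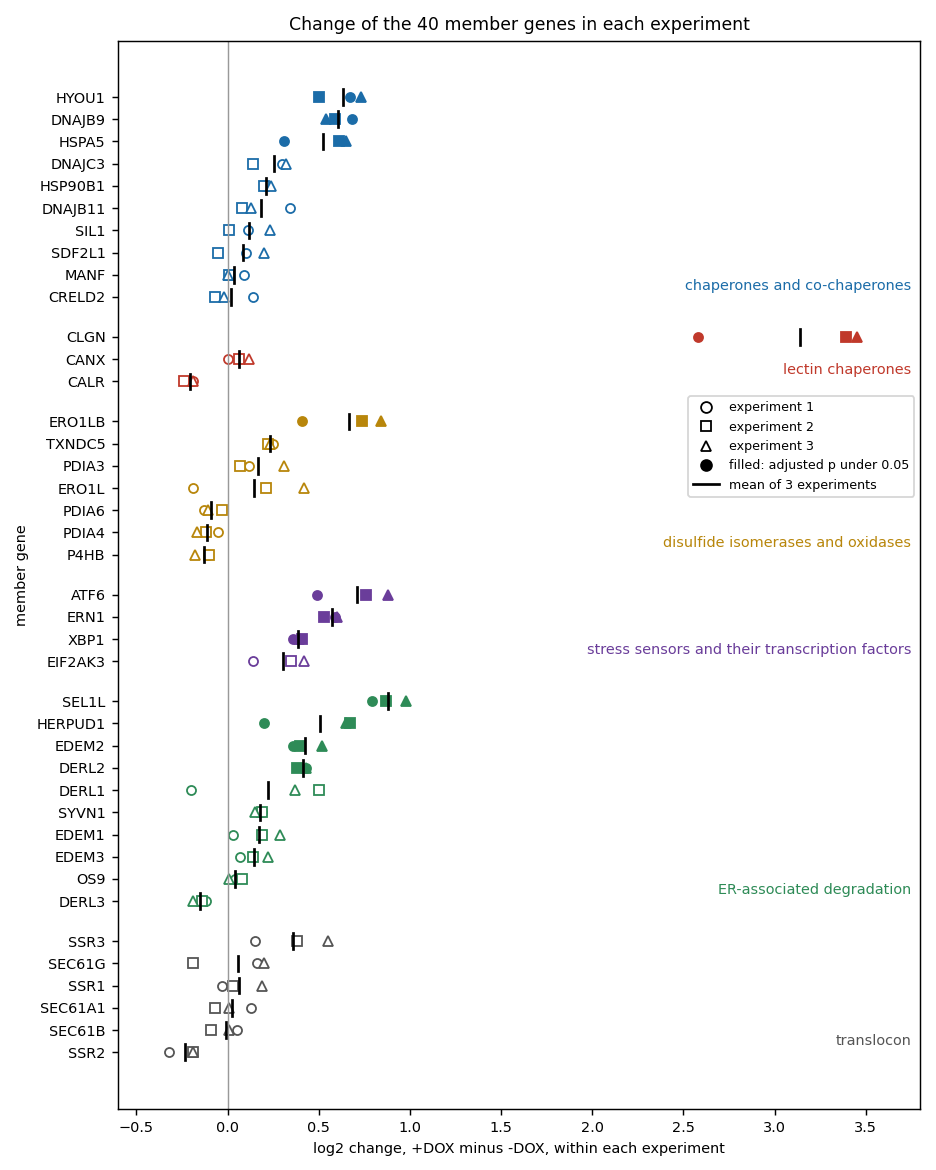
Change of each of the 40 genes (vertical axis, ordered by functional group) as log2 signal of the +DOX array minus the -DOX array of the same experiment (horizontal axis), with 1 point per experiment and a bar at the mean. Filled points mark the 12 genes that rose at an adjusted p under 0.05; CLGN stands at 3.14 and all other means lie between -0.23 and 0.88.

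**Figure D2:**
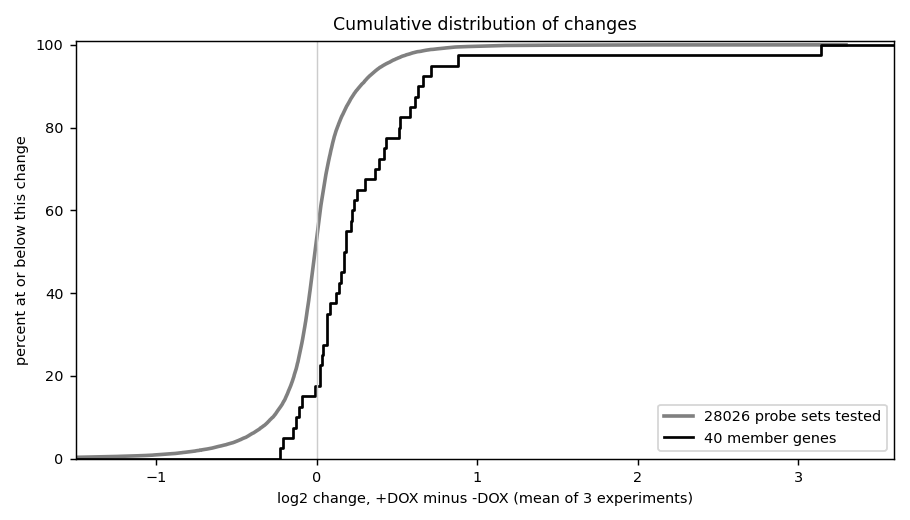
Share of genes or probe sets (vertical axis, percent) with a mean log2 change at or below the value on the horizontal axis, for the 40 members (black) and the 28026 probe sets tested (grey). The member curve lies to the right of the grey one, with medians of 0.17 and -0.012.

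The lectin chaperones held the largest change of the 40 genes. CLGN encodes calmegin, a membrane chaperone related to calnexin that is best known from the testis, and its probe set spans chr4:141529057-141568232 on the minus strand of NCBI36. CLGN read 7.11, 6.31 and 6.35 on the -DOX arrays of experiments 1, 2 and 3, and 9.69, 9.70 and 9.80 on the +DOX arrays. The groups do not overlap, and the -DOX array of experiment 1 was the highest of its group. The mean went from 6.59 ± 0.45 to 9.73 ± 0.06 (SD, n = 3 each), a change of 3.14 (SE 0.166, 8.81-fold, limma adjusted p = 0.000212), above 0 in 3 of 3 experiments. Without doxycycline CLGN lay below the median of its array on each array, where RMA signals are dim, so the fold is that of the deposited signals and its size is less certain.

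Its relatives did not pass. CANX, the widely expressed calnexin, read 13.42, 13.26 and 13.28 without and 13.43, 13.32 and 13.40 with doxycycline, with overlapping groups and a change of 0.06 (SE 0.082, adjusted p = 0.785). CALR, the soluble calreticulin, read 12.40, 12.48 and 12.38 without and 12.21, 12.24 and 12.19 with the drug. Each +DOX array of CALR lay below each -DOX array, but the change of -0.21 (SE 0.081) did not pass in limma (adjusted p = 0.159). In the methods' t-test it passed the 1% level and is the 1 lower member counted above. The difference in change between CLGN and its relatives was not tested.

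All 4 genes of stress sensing had +DOX arrays above the -DOX arrays (11.4% of all probe sets), and 3 of them rose (6.14% of all probe sets). ATF6, the membrane-bound factor that is cut in the Golgi to become a transcription factor, read 10.99, 10.78 and 10.77 without and 11.48, 11.54 and 11.65 with doxycycline, a change of 0.71 (SE 0.1, adjusted p = 0.00494). ERN1, the kinase and RNase IRE1, had nearly equal arrays within each group, at 8.74, 8.74 and 8.72 against 9.33, 9.27 and 9.32, a change of 0.58 (SE 0.081, adjusted p = 0.00494). XBP1, the transcription factor whose mRNA IRE1 splices, read 11.41, 11.46 and 11.37 against 11.77, 11.86 and 11.76, a change of 0.39 (SE 0.081, adjusted p = 0.0207). These are gene-level signals, which do not separate spliced from unspliced XBP1. The XBP1 call was lost without experiment 1, 2 or 3 (adjusted p = 0.0671, 0.109 and 0.0867).

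EIF2AK3, the kinase PERK that phosphorylates the translation factor eIF2, read 9.35, 9.10 and 9.02 without and 9.49, 9.45 and 9.44 with doxycycline. Its change of 0.30 (SE 0.091) missed the threshold (adjusted p = 0.0748), and passed when dim probe sets were left out before adjustment (adjusted p = 0.0375).

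Among 10 chaperones and co-chaperones, 3 rose, where 6.14% of all probe sets rose, and 7 did not pass. The median change of the 10 was 0.20, against -0.012 over all probe sets. In 6 of the 10 all +DOX arrays lay above all -DOX arrays, against 11.4% of all probe sets. HYOU1, a large ER relative of HSP70 that exchanges nucleotide on BiP, read 10.64, 10.71 and 10.52 without and 11.31, 11.21 and 11.25 with doxycycline, a change of 0.63 (SE 0.088, adjusted p = 0.00483). DNAJB9, a J-domain protein of the ER lumen, read 7.96, 8.32 and 8.23 against 8.64, 8.91 and 8.77, a change of 0.61 (SE 0.083, adjusted p = 0.00458). HSPA5, the ER HSP70 known as BiP, read 12.16, 12.06 and 11.91 against 12.47, 12.67 and 12.55, a change of 0.52 (SE 0.098, adjusted p = 0.0141). In all 3 genes the groups are apart, and for HSPA5 the change was smallest in experiment 1, at 0.31. The HSPA5 call was lost without experiment 2 or 3 (adjusted p = 0.0702 and 0.0873).

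The other chaperones had small changes that did not pass. HSP90B1, the ER member of the HSP90 family, read 12.61, 12.51 and 12.50 without and 12.80, 12.71 and 12.74 with doxycycline, a change of 0.21 (SE 0.081, adjusted p = 0.147). DNAJC3 (0.25) and DNAJB11 (0.18), further J-domain partners of BiP, likewise had all +DOX arrays above all -DOX arrays. SIL1, a second nucleotide exchange factor of BiP, had a difference of 0.12, and SDF2L1, which binds ER J-domain proteins, one of 0.08. MANF and CRELD2, ER-resident proteins known to be induced by ER stress, had differences of 0.03 (SE 0.082) and 0.02 (SE 0.087), and their groups overlap.

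Of the 7 disulfide isomerases and oxidases, ERO1LB alone rose, where 6.14% of all probe sets rose. ERO1LB, an oxidase that passes electrons from disulfide isomerases to oxygen, read 6.50, 6.49 and 6.63 without and 6.90, 7.24 and 7.47 with doxycycline, a change of 0.66 (SE 0.106, adjusted p = 0.00775). The groups are apart, and the lowest +DOX array is that of experiment 1. Its mean over the 6 arrays, 6.87, is below the median of all probe sets, 7.50, and the call was lost without experiment 3 (adjusted p = 0.0568). The related oxidase ERO1L read 10.56, 10.05 and 10.15 against 10.37, 10.26 and 10.57, so its groups overlap, with a change of 0.15 (SE 0.123).

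The isomerases had differences on both sides of 0, none of which passed in limma. TXNDC5, an isomerase with thioredoxin domains, read 11.18, 11.35 and 11.28 without and 11.43, 11.57 and 11.50 with doxycycline, a change of 0.23 (SE 0.081, adjusted p = 0.115), and it reached the 1% level of the methods' t-test. PDIA3, which works with calnexin and calreticulin, had a difference of 0.17. P4HB, the founding protein disulfide isomerase, stood at -0.13 and at -0.15 on its other probe set, and PDIA4 and PDIA6 at -0.11 and -0.09. The file lists an accession of the pseudogene PDIA3P1 for the PDIA3 probe set and one of the neighbour BLOC1S5 for TXNDC5, so the values of both are uncertain.

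Of 10 genes of ER-associated degradation, 4 rose, where 6.14% of all probe sets rose, and 6 did not pass. The median change of the 10 was 0.20, against -0.012 over all probe sets. SEL1L, the adaptor that brings substrates to the ligase, read 9.50, 9.42 and 9.29 without and 10.28, 10.29 and 10.27 with doxycycline. Its change of 0.88 (SE 0.086, 1.84-fold, adjusted p = 0.00134) was the next largest after CLGN, from a probe set at chr14:81007646-81069934 of NCBI36, minus strand. The +DOX arrays of SEL1L differed among themselves by far less than they did from the -DOX arrays. Its partner SYVN1, the ligase known as HRD1, read 10.41, 10.37 and 10.46 against 10.60, 10.57 and 10.60, a change of 0.18 (SE 0.081, adjusted p = 0.238) with groups apart.

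HERPUD1, a membrane protein that joins the ligase complex, read 10.82, 10.60 and 10.73 without and 11.02, 11.28 and 11.37 with doxycycline, a change of 0.51 (SE 0.113, adjusted p = 0.0266). DERL2, a derlin of the retrotranslocation step, read 10.18, 10.60 and 10.50 against 10.61, 10.98 and 10.93, a change of 0.42 (SE 0.081, adjusted p = 0.0161). EDEM2, which trims mannose on misfolded glycoproteins, read 9.38, 9.58 and 9.50 against 9.74, 9.98 and 10.02, a change of 0.43 (SE 0.084, adjusted p = 0.0173). DERL2 and EDEM2 were lower in experiment 1 than in the others in both groups, and the paired change of DERL2 was 0.38 to 0.43. DERL2 did not pass without the experiment term, the pairing of arrays (adjusted p = 0.131), nor with any experiment left out (0.063 to 0.076). HERPUD1 and EDEM2 did not pass without experiment 2 (0.125 and 0.0723) or 3 (0.148 and 0.0899), so that SEL1L was the 1 degradation gene called in either case.

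Relatives of these genes did not pass. DERL1 had changes of -0.20, 0.50 and 0.37 in experiments 1, 2 and 3 (mean 0.22, SE 0.137), the widest spread among the degradation genes. DERL3, the derlin of secretory cells, stood at -0.15. Differences were 0.17 for EDEM1 and 0.14 for EDEM3, the other EDEM proteins, and 0.04 for OS9, a lectin that hands glycoproteins to SEL1L.

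No translocon gene passed, with a median change of 0.04 over 6 genes, where 6.14% of all probe sets rose and 6.63% fell. At an unadjusted limma p under 0.05 there were 1 higher (12.1% of all probe sets) and 1 lower (12.4%). Counts over 6 genes are too small to be told from these shares. The channel subunits SEC61A1 (0.02), SEC61B (-0.01) and SEC61G (0.06) had overlapping groups and SEs of 0.083 to 0.103. The subunits of the translocon-associated complex TRAP had differences of either sign. SSR3 read 10.73, 10.94 and 10.70 without and 10.87, 11.32 and 11.26 with doxycycline, a change of 0.36 (SE 0.101, adjusted p = 0.0592), and passed without experiment 1 (adjusted p = 0.0465), with a trended and robust variance (adjusted p = 0.028) and with dim probe sets left out (adjusted p = 0.0256). SSR2 read 12.57, 12.64 and 12.61 against 12.26, 12.45 and 12.42, with all +DOX arrays lower and a change of -0.23 (SE 0.083, adjusted p = 0.13). SSR1 stood at 0.06.

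**Figure D3:**
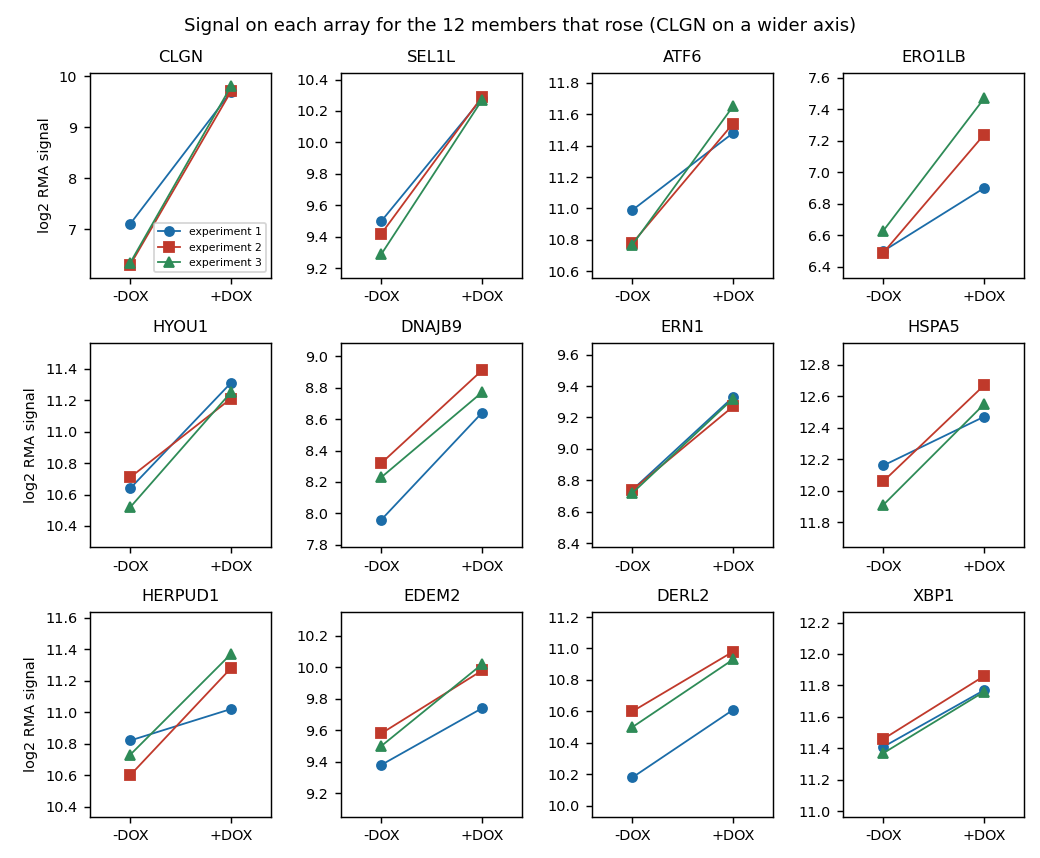
Log2 RMA signal (vertical axis) on each array of the 12 members that rose, without and with doxycycline (horizontal axis), with 1 line per experiment. Every line rises; all panels span the same range of signal except that of CLGN, which is wider, and panels start at different levels.

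The size of the rises differed between experiments. Among the 12 members that rose, the change was smallest in experiment 1 in 8, in experiment 2 in 3 and in experiment 3 in 1. The same held for 65.9% of the 1721 probe sets that rose over the whole array, in experiment 1, so the members followed the array in this. Without experiment 1 the count of members that rose was 11, without experiment 2 it was 7 and without experiment 3 it was 6. CLGN, SEL1L, ATF6, ERN1, HYOU1 and DNAJB9 passed in these 3 fits, without the experiment term, with both other scalings and with the trended and robust variance.

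Many genes of the unfolded protein response carry the ER stress element in their promoter, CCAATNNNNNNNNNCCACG, where N is any base, or its second form ATTGGNCCACG. Both were searched on both strands in the RefSeq promoters of GRCh38.p14, from 250 bases before to 50 after each start. Of the 40 members, 37 had a promoter in the table, and the 3 others were PDIA3, DERL1 and DERL3. The first form was found in 8 members, CALR, CANX, CRELD2, ERO1LB, HSP90B1, HSPA5, PDIA6 and XBP1. The second form was found in HERPUD1, HYOU1 and SDF2L1. Over the whole table, 0.0769% of promoters held the first form and 0.0541% the second, or 25 and 19 of 27305 genes. A match is a match of letters, and no match says nothing about a factor.

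The upstream promoters of the risers HYOU1, HSPA5 and HERPUD1 are shown with their elements, beside that of CLGN, which had the largest rise and no match. Each line gives the 250 bases before the start, in the direction of the gene, with the fixed letters of each motif in capitals.
HYOU1, chr11:119057206-119057455, minus strand: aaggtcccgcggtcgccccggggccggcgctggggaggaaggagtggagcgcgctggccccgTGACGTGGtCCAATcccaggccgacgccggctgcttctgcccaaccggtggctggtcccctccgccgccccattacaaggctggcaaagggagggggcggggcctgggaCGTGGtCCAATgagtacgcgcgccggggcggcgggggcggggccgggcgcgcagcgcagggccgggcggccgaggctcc
HSPA5, chr9:125241344-125241593, minus strand: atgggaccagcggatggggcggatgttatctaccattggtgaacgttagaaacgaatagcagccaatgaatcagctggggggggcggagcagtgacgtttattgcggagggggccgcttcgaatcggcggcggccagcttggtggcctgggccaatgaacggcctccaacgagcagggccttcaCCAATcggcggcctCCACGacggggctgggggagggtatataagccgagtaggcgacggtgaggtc
HERPUD1, chr16:56931892-56932141, plus strand: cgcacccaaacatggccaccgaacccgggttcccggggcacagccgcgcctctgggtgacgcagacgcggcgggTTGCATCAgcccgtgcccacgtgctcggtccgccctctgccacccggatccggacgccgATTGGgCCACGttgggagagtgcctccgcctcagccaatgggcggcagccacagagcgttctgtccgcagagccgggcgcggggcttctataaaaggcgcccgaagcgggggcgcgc
CLGN, chr4:140427649-140427898, minus strand: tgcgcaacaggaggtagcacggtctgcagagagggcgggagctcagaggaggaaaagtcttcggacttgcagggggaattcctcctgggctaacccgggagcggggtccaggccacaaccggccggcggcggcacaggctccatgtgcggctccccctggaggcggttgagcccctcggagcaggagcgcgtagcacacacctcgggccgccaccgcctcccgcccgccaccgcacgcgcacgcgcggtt

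HYOU1 held the second form at 185 and 79 bases before the start, and the farther copy overlaps a TGACGTG, the core of the unfolded protein response element, at 188. That core was found in 1.97% of all promoters, or 2.4% of genes. Of the 37 members with a promoter, 4 held it, HYOU1 and, on 1 of several promoters each, SEC61A1, SSR3 and TXNDC5. HSPA5 held the first form at 66 bases before the start. HERPUD1 held the second form at 117, and at 176 a TGATGCAA in reverse, the core of the composite site that ATF4 and C/EBP proteins bind. That core was found in 0.866% of all promoters, or 1.08% of genes, and in no other member.

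The other elements are shown with 12 bases on each side, or up to the edge of the promoter, to set genes that rose beside genes that did not. XBP1 and ERO1LB rose; the rest did not pass.
XBP1, chr22:28800591-28800633, minus strand: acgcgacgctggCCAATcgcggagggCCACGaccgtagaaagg
ERO1LB, chr1:236282171-236282208, minus strand: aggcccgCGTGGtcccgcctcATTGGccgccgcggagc
HSP90B1, chr12:103930204-103930246, plus strand: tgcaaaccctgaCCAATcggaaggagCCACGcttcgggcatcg
HSP90B1, chr12:103930309-103930351, plus strand: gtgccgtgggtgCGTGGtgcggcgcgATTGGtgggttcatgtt
CRELD2, chr22:49918542-49918584, plus strand: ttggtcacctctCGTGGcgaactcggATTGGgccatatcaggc
SDF2L1, chr22:21642102-21642136, plus strand: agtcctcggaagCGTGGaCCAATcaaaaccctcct
CANX, chr5:179698766-179698808, plus strand: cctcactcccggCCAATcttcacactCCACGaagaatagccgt
PDIA6, chr2:10812841-10812883, minus strand: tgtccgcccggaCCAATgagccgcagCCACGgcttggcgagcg
CALR, chr19:12938372-12938414, plus strand: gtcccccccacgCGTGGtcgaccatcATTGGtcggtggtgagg

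HSP90B1 held 2 copies and CANX the same copy in 3 overlapping promoters, and PDIA6 and XBP1 held theirs on 1 of 2 promoters. Of the 11 members with either form, 5 rose and none fell, with a median change of 0.21 and a range from -0.21 in CALR to 0.66 in ERO1LB. Of the 26 without, 7 rose and none fell, with a median of 0.17 and a range from -0.23 in SSR2 to 3.14 in CLGN. The shares of all probe sets that rose and fell were 6.14% and 6.63%, with a median of -0.012. Members with an element were thus both among those that rose and among those that did not pass, and SEL1L, ATF6, DNAJB9 and ERN1 rose without a match in this window. No test was made of these counts.

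**Figure D4:**
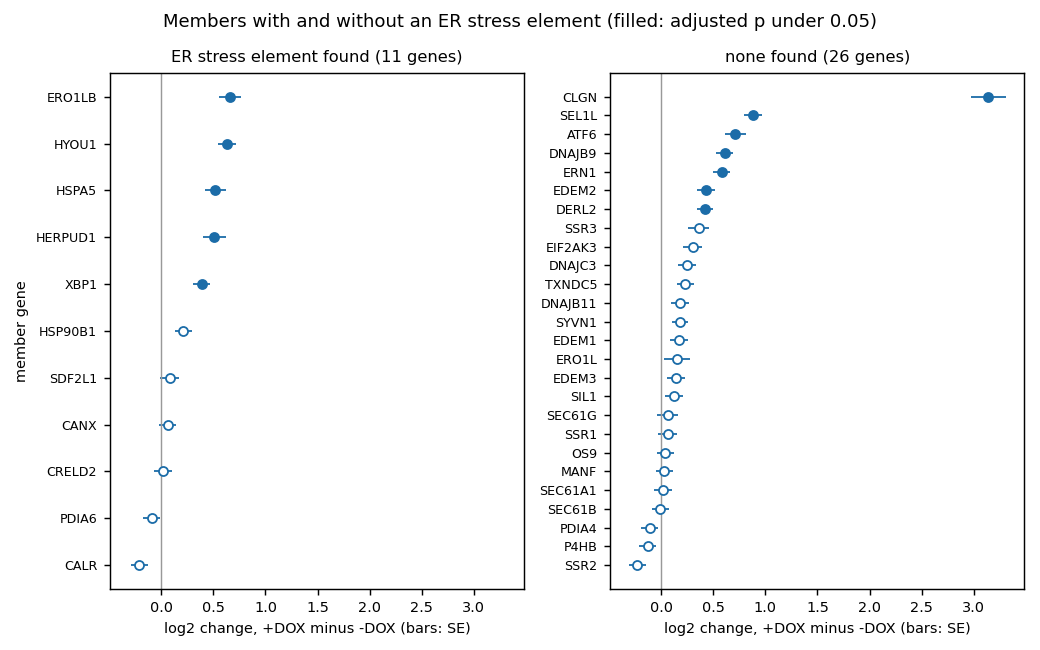
Log2 change of +DOX against -DOX (horizontal axis, with SE bars) for the 11 members with an ER stress element in the promoter (left) and the 26 without a match (right), 1 gene per row; filled points have an adjusted p under 0.05. Filled points occur in both panels, 5 on the left and 7 on the right. Of all probe sets, 6.14% rose.

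Further genes of these steps were read from 5 lists of 110 genes in all, with 18 rises (16.4%) and 5 falls (4.55%) and a median change of 0.07. Over all probe sets 6.14% rose and 6.63% fell. In the list of PERK and stress signalling 5 of 21 rose (23.8%) and 1 fell (4.76%). DDIT3, the factor CHOP that is induced downstream of PERK and ATF4, changed by 1.61 (SE 0.193). PPP1R15A, which directs a phosphatase back to eIF2, changed by 1.31 (SE 0.123). TRIB3, a pseudokinase induced by CHOP, changed by 1.10 (SE 0.097) and the factor ATF3 by 0.47 (SE 0.083). The limma adjusted p of the 4 was 0.00274, 0.00121, 0.001 and 0.0112, and ATF3 did not pass without experiment 2 (adjusted p = 0.064). In the methods' t-test TRIB3 and ATF3 reached the 1% level, and DDIT3 and PPP1R15A did not. The gene that fell was CREB3L4 (-0.56, SE 0.134, limma adjusted p = 0.0344), a call lost without experiment 2 or 3. ATF4 itself did not pass, at -0.19 (SE 0.083, limma adjusted p = 0.229).

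Among 32 other ER foldases 5 rose (15.6%) and 2 fell (6.25%, near the share of all probe sets). ERP27, a protein of the disulfide isomerase family, fell from 9.94 ± 0.15 to 8.22 ± 0.22 (SD, n = 3 each), a change of -1.71 (SE 0.132) with a limma adjusted p of 0.00068. The ER J-domain reductase DNAJC10 (0.83, SE 0.107), the HSP70 relative HSPA13 (0.80, SE 0.1) and ERP44, which retains ERO1 oxidases in the ER (0.53, SE 0.098), rose. Of 23 other degradation genes 2 rose (8.7%, near the share of all probe sets) and none fell, with NGLY1, which removes glycans from retrotranslocated proteins, at 0.78 (SE 0.126) and AUP1 at 0.44 (SE 0.091). Without experiment 3 the calls of NGLY1, AUP1 and ERP44 were lost (adjusted p = 0.0526, 0.0986 and 0.0851), and without experiment 2 those of AUP1 and ERP44 (0.0702 and 0.0665).

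Of 20 genes of signal recognition, translocation and signal peptidase, 4 rose (20%) and 1 fell (5%). SEC11C, a signal peptidase subunit, changed by 0.50, and SRP54 and SRP72, proteins of the signal recognition particle, by 0.49 and 0.42. TRAM2, a translocon-associated protein, fell by 0.53. The rises of SEC11C, SRP54 and SRP72 did not pass without experiment 3 (adjusted p = 0.0668, 0.113 and 0.116), nor those of SRP54 and SRP72 without experiment 2 (0.0844 and 0.129), and SEC11C and SRP54 did not pass without the experiment term (0.0643 and 0.163). In the list of oligosaccharyltransferase and glycan quality control 2 of 14 rose (14.3%) and 1 fell (7.14%). The glucosyltransferases UGGT1 (0.35) and UGGT2 (0.36), which mark unfolded glycoproteins, rose, and TUSC3, a subunit of the transferase, changed by -0.39. These 3 calls were lost with any experiment left out (adjusted p = 0.0521 to 0.198), and those of UGGT1 and UGGT2 also without the experiment term (0.101 and 0.33).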

How the data were processed

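Arrays were Affymetrix gene-level chips of 6 samples. The deposited log2 values come from the Robust Multichip Average (RMA), per the design text, in R 2.11.1, per the submitters' processing notes. RMA corrects background, brings arrays to a common distribution and summarises probes, which can compress changes of dim probe sets. A workbook by the authors holds the same values (largest difference 5.0e-09) and gave the gene symbols and coordinates, which are of NCBI36 by their chromosome accessions. Of 33297 probe sets, 4428 controls and 976 empty ones were left out, with overlap, and 28026 were tested. Arrays have no depth; their number limits the precision.

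Members were matched by symbol, and a gene with several probe sets was read from the brightest. The test was limma 3.58.1 in R 4.3.3 (lmFit, eBayes), +DOX against -DOX with the experiment as a term, and Benjamini-Hochberg adjustment at 0.05. That the test is paired comes from the design text, and arrays with the same replicate number were taken as pairs. Deviations of paired arrays from their group means correlated at 0.482, 0.165 and 0.0993. With 3 pairs, the smallest p an exact sign-flip test allows is 0.25. The fitting code was run on simulated data, with noise independent between probe sets and a term shared within each experiment. Fewer probe sets were changed in that run than were called here. That run does not measure the error rate on these arrays. Alternatives were no experiment term, the methods' t-test, equal medians, quantile scaling, bright probe sets (mean above 7.50), a trended and robust variance, and each experiment left out. All members are named, with up to 4 genes of smallest p among those passing from each of 5 other lists of 110 genes, all of which were matched. CREB3L4 and ATF4 are named besides. Members and lists were chosen with earlier results of these data known. The level of the hairpin's target is not reported here.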

Additional observations from a re-analysis of the deposited data

How the results depend on the processing

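The count of 12 members that rose was 11 without the replicate block (the experiment term) and 12 with equal array medians and with quantile scaling. It was 13 with the trended and robust variance. With bright probe sets it was 13 of 39 members, since ERO1LB was left out as dim while EIF2AK3 and SSR3 passed. The count was 6 to 11 with an experiment left out and 0 by the methods' t-test after adjustment. That adjusted test was not counted over all probe sets, so the 0 cannot be read as particular to the members. No member fell in any limma setting, and 1 (CALR) fell by the methods' t-test at the 1% level. Of the other pathway genes, 18 rose and 5 fell. The methods' t-test gave 5 and 3 at the 1% level and 0 and 0 after adjustment, the bright probe sets gave 8 falls, and leaving out an experiment gave 6 to 14 rises and 2 to 4 falls. Fits with an experiment left out rest on 4 arrays in place of 6. The cause of these and the other shifts was not tested. Of the 12 calls, 6 held in each limma setting other than the bright probe sets, which are not counted here because CLGN enters them only through its +DOX arrays. Signs turned in members that no setting called: SEC61B with equal medians (0.03), and with an experiment left out CRELD2 (-0.04 to 0.06), SEC61A1 (-0.03 to 0.07), SEC61B (-0.04 to 0.03), SEC61G (-0.02 to 0.18) and SSR1 (-0.0013 to 0.11). The paired block changed the call of 1 member, DERL2.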
